A study of Gallus gallus with 8 samples.

Results

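The transition from cortical fibers (FP) to central fibers (FC) of the embryonic chicken lens was described across the loci that carried a gene symbol and reached 5 FPKM or more in FC or FP. FPKM counts fragments per kilobase of exon, scaled to the number of fragments mapped, and is a level relative to all RNA of the library. Of 16906 loci in the table, 12825 had a gene symbol that was more than an Ensembl number or the name of a small RNA, and 5941 of these met the level rule. There were 5481 members at 5 FPKM or more in both regions, 320 that passed in FC only and 140 that passed in FP only. At the edge of the rule, KBTBD2 (5.00 FPKM in FC and 4.70 FPKM in FP) was just inside, and ZNF516 (4.36 FPKM in FC and 4.998 FPKM in FP) was just outside. Functional groups were compared through the ratio of FC over FP.

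The lenses came from chickens of embryonic day 13 with no treatment or strain given. FC held the central fiber core and FP the cortical fibers around it, both taken by microdissection, and each of the 4 FC and FP libraries was made from the pooled pieces of 100 lenses. The regions can share lenses, since a lens gave pieces of each. The deposited table holds 1 FPKM per region over its 2 libraries, with the bounds of a 95% interval, so that no spread between libraries and no test of a difference is given here, and every comparison is a description of pooled values. Intervals stand in parentheses after each FPKM. In pooled tissue, fewer cells of a type and less RNA per cell cannot be told apart.

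Lens fibers form when epithelial cells at the equator leave the cell cycle, elongate and fill with crystallins. Each generation of fibers is covered by the next, so that cells of the core are older than those of the cortex. Fibers of the core later lose their nuclei, mitochondria and endoplasmic reticulum, which clears the light path, and afterwards they can make little new RNA. The E13 lens lies at the start of that clearance, so the FC and FP transcripts record fibers early in it. The paper describes FP cells of this stage as degrading their mitochondria and FC cells as eliminating theirs.

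The label of both regions as fiber was checked with 10 fiber markers, all of which were members. They summed to 82918 FPKM in FC and 53055 FPKM in FP, and 9 of the 10 were higher in FC. Lens epithelial markers were low in both regions, at a sum of 308 FPKM in FC and 247 FPKM in FP over 17 loci. They were higher in FC at 15 of the 17 loci, of which 8 reached 5 FPKM in FC or FP. Among all members, which reach that level by rule, 69.6% were higher in FC. FOXE3, a defining epithelial factor, was at 0.735 FPKM in FC and 0.197 FPKM in FP. Red cell markers summed to 322 FPKM in FC and 215 FPKM in FP, nearly all of it from HBAA, HBB and HBAD. Summed markers of leukocytes (16.8 FPKM in FC and 10.9 FPKM in FP), pigmented cells (10.3 FPKM in FC and 7.80 FPKM in FP), retina and neurons (68.8 FPKM in FC and 58.8 FPKM in FP) and mesenchyme, cornea and vessels (19.7 FPKM in FC and 21.1 FPKM in FP) were low, and few single markers reached 5 FPKM, among them CD74 at 11.7 FPKM in FC and 6.72 FPKM in FP and DCN at 11.3 FPKM in FC and 12.4 FPKM in FP. The part of these cells in the results was not tested.

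Across all members FC and FP were close. The ratio of FC over FP had a median of 1.08 over the 5939 members with a value above 0 in both regions, which is 0.11 on the log2 scale, with quartiles of -0.04 and 0.29, and 4133 of them, or 69.6%, were higher in FC. Members near that median, here at most 25% above or 20% below it, numbered 4597, or 77.4%. FC was higher by 1.5-fold or more at 388 members, or 6.53%, and lower by 1.5-fold or more at 121, or 2.04%. At 2-fold the counts were 60 higher (1.01%) and 33 lower (0.556%). The surplus of higher loci depended on the scaling. After the ratios were centred on their median there were 222 higher and 172 lower members at 1.5-fold, and after FC was rescaled to the same FPKM sum over the members there were 186 higher and 206 lower, with a median log2 ratio of -0.04. Those sums were 897336 FPKM in FC and 806901 FPKM in FP. Loci of the mitochondrial genome, 3 in number, made up 215178 FPKM in FC and 238047 FPKM in FP of them. Their FPKM lay outside their own intervals, so the rescaled counts rest in part on uncertain values. Groups are therefore described relative to the median of all members.

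**Figure D1:**
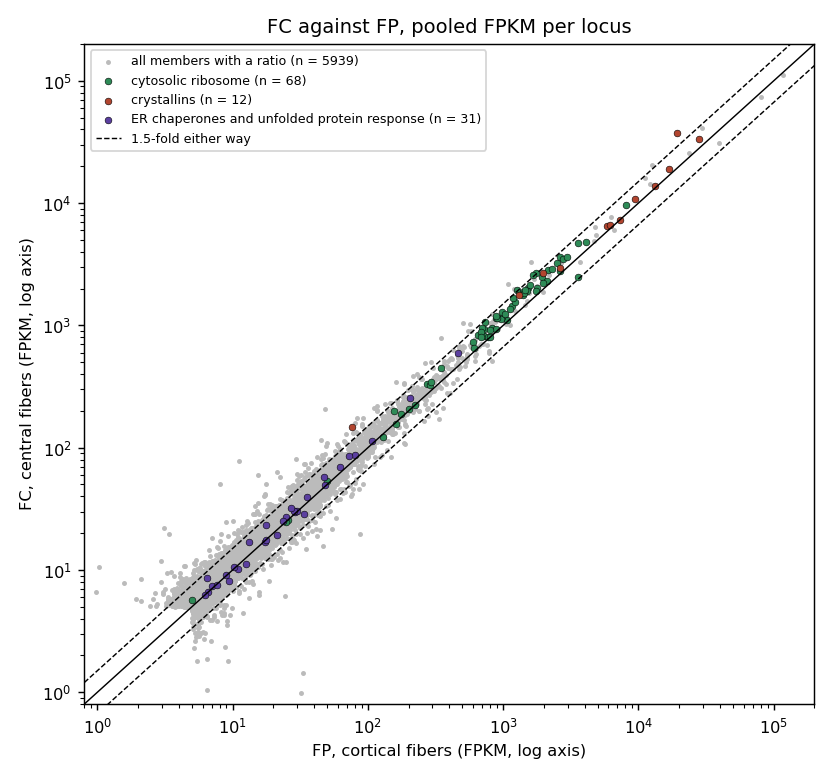
Pooled FPKM of each member in FC (vertical, log axis) against FP (horizontal, log axis), 1 point per locus, with the solid line at equal values and dashed lines at 1.5-fold either way. Crystallins, cytosolic ribosome genes and endoplasmic reticulum (ER) chaperones are colored. Most of the 5939 points lie between the dashed lines, with 388 on or above the upper line and 121 on or below the lower one.

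The intervals were wide against these differences. The upper bound was 7.63 times the lower bound at the median member in FC and 6.81 times in FP, leaving out members with a lower bound of 0. The FPKM of each region lay inside the interval of the other at 5689 members, or 95.8%. The intervals of FC and FP did not overlap at 1 member, C10ORF47, which is 0.0168% of the members. C10ORF47 (chromosome 1, 6073785 to 6075369 in the Galgal4 assembly, as listed) had 10.7 FPKM (3.101 to 18.2) in FC and 1.03 FPKM (0.129 to 1.81) in FP, a ratio of 10.3. At every other member the intervals of FC and FP overlapped. Overlap is a description and not a test of a difference. By its own Cuffdiff test, the paper reports a limited number of transcripts that differed between FP and FC, which was not used here. A pair of members was listed at 0 in one region, each with an FPKM above its own interval in the other. PCP4 had 6.05 FPKM in FC and was listed at 0 in FP, and HAR1A was listed at 0 in FC and had 24.9 FPKM in FP.

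The members farthest from equal levels were taken among 5365 loci with 5 FPKM or more in both regions, a single symbol and values inside their own intervals. TRAIL-LIKE, named for the death ligand TRAIL of the tumor necrosis factor family, had 50.5 FPKM (10.1 to 90.9) in FC and 8.02 FPKM (2.65 to 13.3) in FP, a ratio of 6.304 that was the highest of these. POLQ, a DNA repair polymerase, had 206 FPKM (7.89 to 467) in FC and 48.02 FPKM (3.33 to 494) in FP. NUPL2, a nucleoporin-like protein, had 59.99 FPKM (11.4 to 109) in FC and 15.5 FPKM (5.45 to 25.5) in FP. The intervals of these 3 loci show unlike precision, since the POLQ intervals of FC and FP cover nearly the same range while those of TRAIL-LIKE touch only between 10.1 and 13.3 FPKM. Next came ACBD7, an acyl-CoA-binding protein, at 62.9 FPKM in FC and 21.2 FPKM in FP, and LRR1, a leucine-rich repeat protein, at 50.9 FPKM in FC and 17.5 FPKM in FP. ORC6, a subunit of the origin recognition complex, was at 24.6 FPKM (6.47 to 41.5) in FC and 8.89 FPKM (2.88 to 14.7) in FP. SPHK1, which makes sphingosine 1-phosphate, was at 116 FPKM (17.2 to 209) in FC and 44.8 FPKM (8.74 to 80.8) in FP. The other 5 of the 12 highest ratios were DMA (2.57), an MHC class II chaperone subunit, SDCCAG3 (2.56), the DNA-binding protein ARID3A (2.496), the Ras-like GTPase DIRAS1 (2.42) and the spectrin SPTBN4 (2.38). In 10 of the 12, the FPKM of at least 1 region was outside the interval of the other.

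At the other end stood R3HDML (chromosome 20, 5792280 to 5796634), with 6.099 FPKM (2.06 to 10.1) in FC and 24.3 FPKM (8.56 to 40.01) in FP and a ratio of 0.251. TNFAIP8, a regulator of cell death, had 15.8 FPKM (1.396 to 109) in FC and 46.9 FPKM (1.36 to 96.99) in FP. PARM1 was at 6.24 FPKM in FC and 15.6 FPKM in FP, and DNAAF2, which helps to assemble axonemal dynein, was at 6.56 FPKM in FC and 15.8 FPKM in FP. The calcium-dependent kinase CAMK1G had a ratio of 0.438, the p38 kinase MAPK11 of 0.4496, the innate immune kinase TBK1 of 0.466 and the interleukin receptor kinase IRAK4 of 0.511. IRAK4 was the most abundant of the 11 low loci described, at 171 FPKM (1.69 to 808) in FC and 334 FPKM (0.0706 to 815) in FP, and its intervals nearly coincide. The remaining 3 were VSTM5 (0.445), WRB (0.477), which helps to insert tail-anchored proteins into the ER membrane, and CCDC3 (0.495). In 6 of these 11, each FPKM lay inside the interval of the other region, against 2 of the 12 highest.

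**Figure D2:**
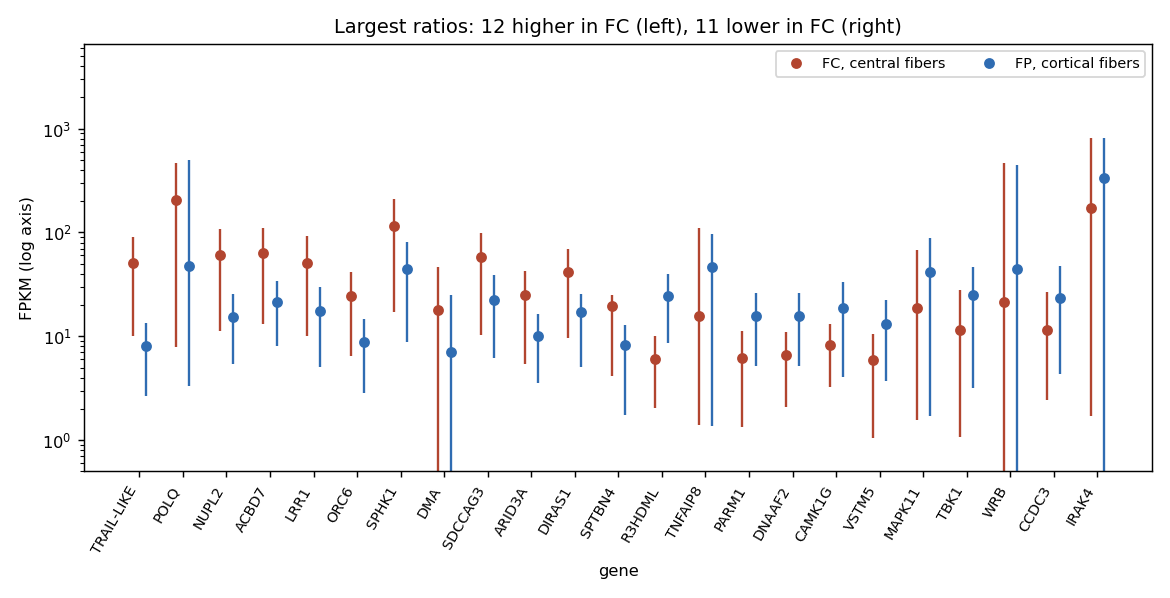
FPKM (log axis) of 12 members with the highest and 11 with the lowest ratios of FC over FP, with FC left of FP for each gene. Points are the pooled values and bars the 95% intervals, and a bar that reaches the axis has a lower bound under 0.5 FPKM. The intervals of FC and FP overlap for all 23 genes, narrowly for TRAIL-LIKE and R3HDML and almost fully for WRB and IRAK4.

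Functional groups were described by a rule on the members of 48 gene lists, which held 1681 of the members. A list of 8 or more members was said to drift if its median log2 ratio was 0.15 or more from that of all members with 70% of its members on that side, and to stay flat if its median was within 0.1 and 70% of its members were near the median of all members. Of the 46 lists with 8 or more members, 38 stayed flat, 7 were mixed and 1, the cytosolic ribosome, drifted toward FC. None drifted toward FP. The whole set of members would itself be called flat by this rule, since 77.4% of them were near their median. A flat call therefore does not set a list apart from the members in general. The medians ran from -0.09 for lens transcription factors to 0.16 for the cytosolic ribosome. In 29 of the 46 lists a larger share of members lay near that median than the 77.4% of all members, and in 8 the share was 90% or more.

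**Figure D3:**
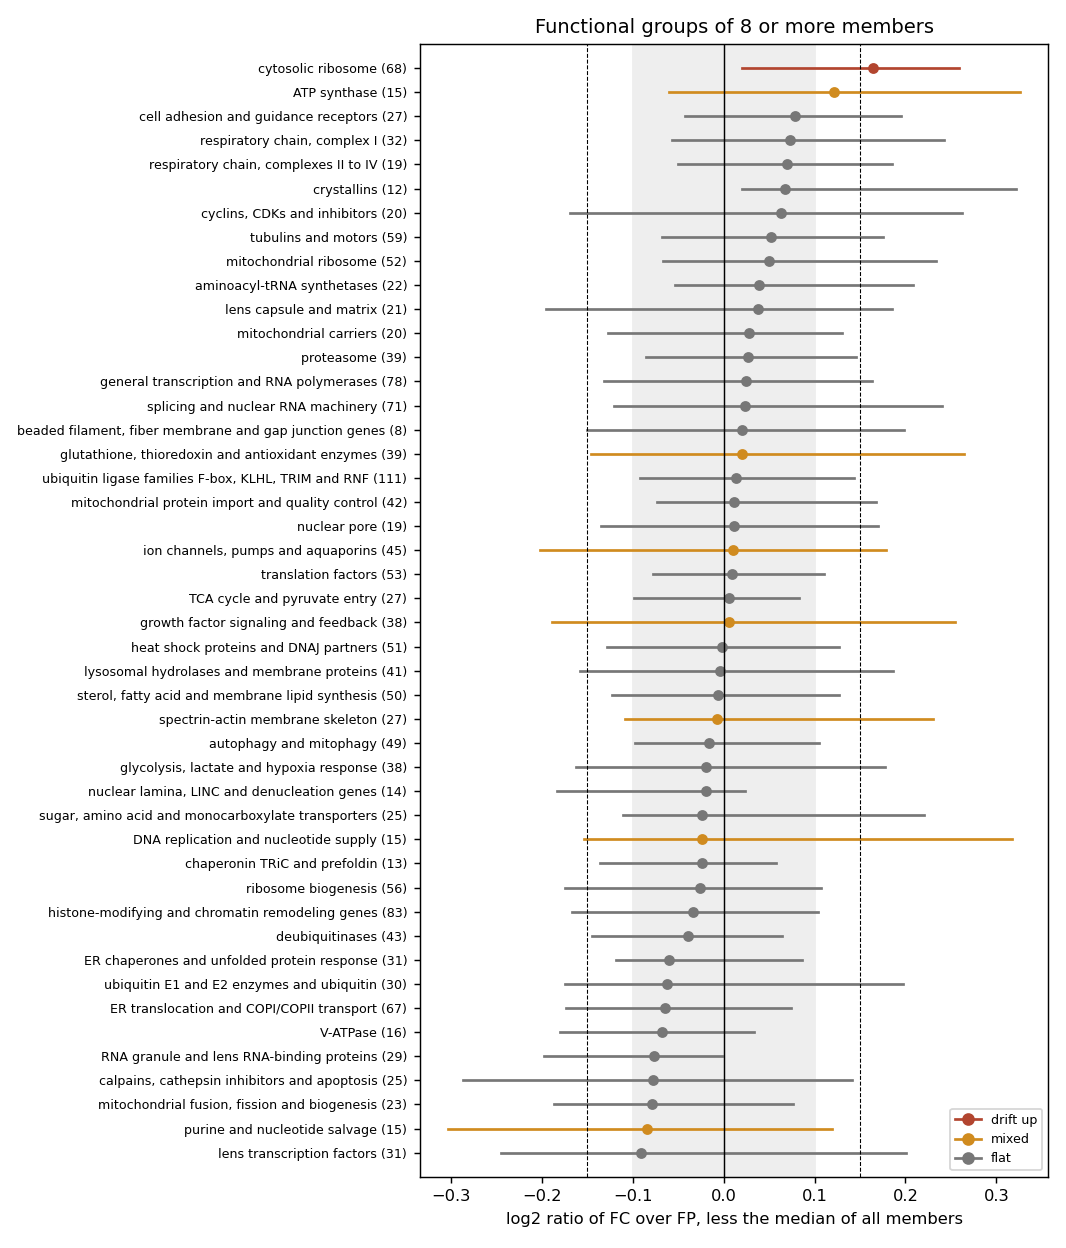
Median log2 ratio of FC over FP of each list of 8 or more members, less the median of all members (points), with quartiles (bars) and the number of members in parentheses. The gray band marks 0.1 either way and the dashed lines 0.15 either way. The 46 medians lie between -0.09 and 0.16, and the cytosolic ribosome is the only one past a dashed line.

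Crystallins, the soluble proteins that give the lens its refractive index, were among the most abundant members, and 11 of the 12 were higher in FC, beside 69.6% of all members. The list summed to 142264 FPKM in FC and 111944 FPKM in FP, a ratio of 1.27. It was flat by its median, 0.07 above that of all members, but its mean was 0.20 above the mean of all members, which would place it among the drifting lists. The difference between median and mean came from a few beta- and gamma-crystallins. CRYBB1 (chromosome 15, 7176717 to 7179013) had 37643 FPKM (1528 to 73746) in FC and 19219 FPKM (13.5 to 39227) in FP, a ratio of 1.96. CRYGS had 147 FPKM (37.9 to 249) in FC and 76.9 FPKM (24.1 to 121) in FP, a ratio of 1.92 at a far lower level. CRYBA4 had 2691 FPKM (472 to 4884) in FC and 1984 FPKM (389 to 3502) in FP, and CRYGN had 1761 FPKM (302 to 2653) in FC and 1304 FPKM (245 to 2294) in FP. The other beta-crystallins were nearer to equal levels, with ratios of 1.14 for CRYBB2, 1.12 for CRYBA2, 1.105 for CRYBB3 and 1.08 for CRYBA1. The crystallin loci were short, with a median genomic span of 3807 bases. Their median log2 ratio was 0.18, beside 0.19 for all members with spans of 2867 to 4919 bases. The part of span in the crystallin ratios was not tested.

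The alpha-crystallins, which are small heat shock proteins, were close to the median of all members. CRYAA had 33339.7 FPKM (54.2 to 98759.7) in FC and 27994 FPKM (5.25 to 98089) in FP, a ratio of 1.19. CRYAB had 13681 FPKM (12.2 to 36686) in FC and 13167 FPKM (8.01 to 32201) in FP, a ratio of 1.04. GLULD1, the lens protein lengsin of the glutamine synthetase family, had 2939 FPKM in FC and 2627 FPKM in FP, a ratio of 1.12. ASL2, an active argininosuccinate lyase that doubles as a delta-crystallin in birds, was the lowest of the list at 7264 FPKM in FC and 7288 FPKM in FP, a ratio of 0.997. Its close copy ASL1, or delta-crystallin, was not analysed here, and reads of the pair can be split uncertainly between them. The paper states that ASL1 was left out of its Cufflinks values because its mapped reads passed the default limit. In a separate run the paper found ASL1 to be fiber-preferred. The crystallin sums and ranks given here therefore leave it out. Among the crystallins listed here, the order of levels was led by CRYBB1 and CRYAA in FC and by CRYAA and CRYBB1 in FP, with intervals that overlap in both regions.

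The intermediate filament and membrane genes that set fibers apart did not move as a block. CP49, or phakinin, and BFSP1, or filensin, together form the beaded filament found only in lens fibers. CP49 (chromosome 2, 43197022 to 43212426) had 20441 FPKM (467 to 40277) in FC and 12633 FPKM (5.45 to 25298) in FP, a ratio of 1.62. BFSP1 had 14305 FPKM (0.563 to 47935) in FC and 12162 FPKM (2.51 to 33057) in FP, a ratio of 1.18. Their relative VIM, vimentin, had 7651 FPKM (211 to 15089.6) in FC and 6228 FPKM (13.6 to 12840.2) in FP. GJA3, a fiber connexin of the gap junctions through which core fibers are supplied, was nearly level at 554 FPKM (118 to 989.6) in FC and 541 FPKM (111 to 968) in FP. GJA1, the connexin of epithelial cells, was at 123 FPKM in FC and 96.2 FPKM in FP. CAPRIN2, an RNA-binding protein of lens fibers, had a ratio of 0.974, and BIRC7, a caspase inhibitor, had the lowest ratio of the 8, 0.857 (49.3 FPKM in FC and 57.5 FPKM in FP). The list was flat, with 6 of 8 near the median, and CP49 was its only member past 1.5-fold.

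**Figure D4:**
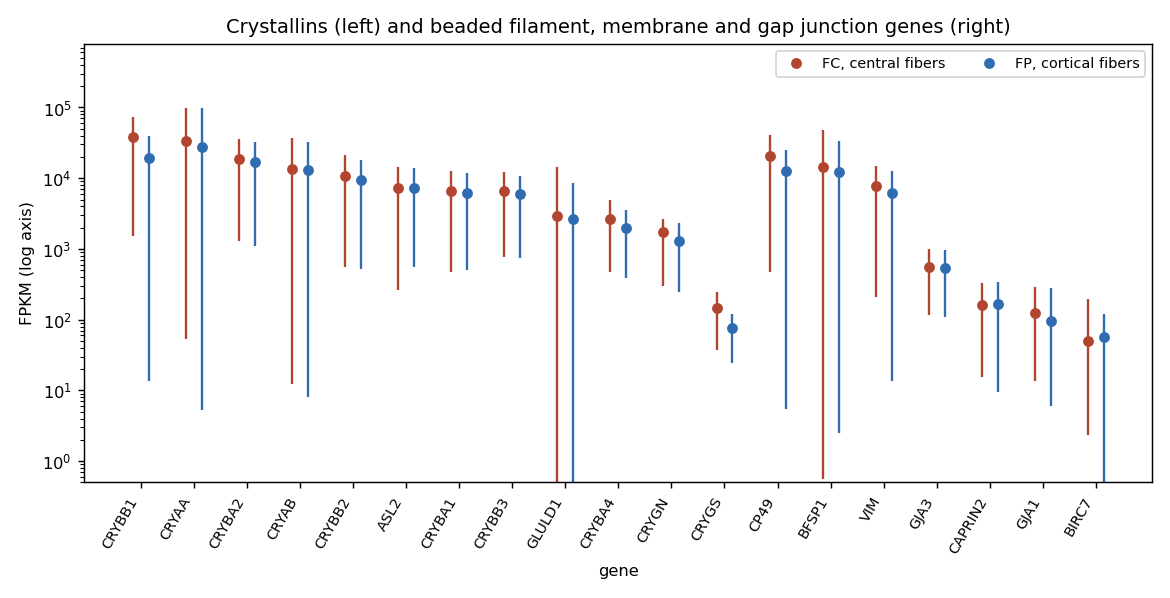
FPKM (log axis) of the 12 crystallins and of 7 beaded filament, membrane and gap junction genes, with FC left of FP for each gene. Points are the pooled values and bars the 95% intervals, and a bar that reaches the axis has a lower bound under 0.5 FPKM. CRYBB1, CRYGS and CP49 show the widest steps between FC and FP, and GJA3 and ASL2 are nearly level.

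The membrane skeleton of spectrin, actin, tropomodulin and their adaptors, which holds fibers in their hexagonal packing, was mixed. Its median was -0.0071 from that of all members, yet only 18 of 27 members were near the median, and 4 were 1.5-fold or more higher in FC, beside 6.53% of all members. TMOD1, which caps actin pointed ends, had 10.7 FPKM (3.94 to 17.4) in FC and 4.42 FPKM (1.55 to 7.18) in FP, a ratio of 2.43, and was a member through FC only. EPB49, or dematin, an actin bundler that joins actin to spectrin, had 1047 FPKM (104 to 1977) in FC and 503 FPKM (62.8 to 940.3) in FP, a ratio of 2.08. The spectrin SPTBN4, with the ratio of 2.38 given above, was at 19.6 FPKM in FC and 8.25 FPKM in FP. The abundant spectrins differed less, with SPTAN1 at 865 FPKM in FC and 662 FPKM in FP, a ratio of 1.31, and SPTBN1 at 681 FPKM in FC and 586 FPKM in FP, a ratio of 1.16. The locus of ACTG1, cytoplasmic gamma actin, had 40946 FPKM (189 to 80772) in FC and 29690.00 FPKM (306 to 58118) in FP, and ACTB was level at 636 FPKM in FC and 629 FPKM in FP. Lower in FC stood the actin bundler PLS3 (0.752) and the tropomyosins TPM4 (0.833) and TPM1 (0.854). The intervals of FC and FP overlapped for every member of the list.

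Adhesion and guidance receptors were flat, with 24 of 27 members near the median. CDH2, the N-cadherin of fibers, was level at 152 FPKM (8.09 to 401) in FC and 149 FPKM (16.8 to 339) in FP. The catenin CTNNA2, which ties cadherin to actin, had the highest ratio at the more abundant of its 2 loci, 1.46 (368 FPKM in FC and 253 FPKM in FP), followed by the laminin receptor DAG1 at 1.44. The locus of CGN also holds a microRNA and its FPKM in FP lies outside its own interval, so its ratio was not read. Tubulins and motors were flat as well, at 47 of 59 near the median. KIF1A, a kinesin that carries vesicles along microtubules, had 578 FPKM in FC and 455 FPKM in FP, a ratio of 1.27, and TUBB, a beta-tubulin, had 266 FPKM in FC and 182 FPKM in FP, a ratio of 1.46. The microtubule-associated MAP1B was lowest at 0.692 (9.39 FPKM in FC and 13.6 FPKM in FP).

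Genes of the lens capsule, the basement membrane that fibers and epithelium share, were flat with 16 of 21 members near the median. The laminin chain LAMA5 had 31.8 FPKM (7.54 to 56.04) in FC and 21.1 FPKM (6.63 to 35.5) in FP, a ratio of 1.51, and LAMC1, its gamma partner, was listed at 2 loci with ratios of 1.197 and 0.830, so that no single direction can be given for it. TIMP3, a protease inhibitor of the matrix, had the highest ratio (1.67) with lower bounds of 0 in both regions. The most abundant members were SPARCL1 at 1865 FPKM in FC and 1973 FPKM in FP and SPARC at 1147 FPKM in FC and 954 FPKM in FP. CCDC80, known in chick lens as equarin, had the lowest ratio, 0.828 (156 FPKM in FC and 189 FPKM in FP).

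Transcription factors of the lens had the lowest median of all lists, -0.09 relative to all members, and were flat, with 23 of 31 near the median. SOX2, a partner of PAX6 in starting the lens program, was the exception on the high side, with 221 FPKM (46.05 to 392) in FC and 117 FPKM (34.2 to 199) in FP and a ratio of 1.89. PAX6 itself, listed as PAX-6, was level at 57.9 FPKM (9.53 to 109.8) in FC and 56.97 FPKM (4.27 to 125) in FP. HSF4, the heat shock factor that lens fibers use for crystallin expression, had 92.1 FPKM in FC and 73.8 FPKM in FP, a ratio of 1.247. PITX3 at 824 FPKM in FC and 788 FPKM in FP and the homeodomain-only protein HOPX at 1465 FPKM in FC and 1458 FPKM in FP were the most abundant and level. On the low side, LMO2, a LIM-domain bridging factor, had 194 FPKM (0.558 to 1076) in FC and 321 FPKM (3.44 to 751) in FP, a ratio of 0.605. ETV4, an ETS factor that responds to fibroblast growth factor (FGF), had 19.6 FPKM (6.49 to 32.6) in FC and 29.2 FPKM (7.42 to 49.8) in FP, a ratio of 0.6696, and its relative ETV5 had a ratio of 0.844. HMGA1 came next above ETV4 (0.693), but its FPKM lay outside its own interval in both regions.

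RNA-binding proteins of fibers, several of which are found in RNA granules, lay mostly below the median of all members, at 22 of 29. Their median was -0.08 relative to all members, and the list was flat by the rule. Their loci were long, with a median span of 30263 bases. The median log2 ratio of the list was 0.04, beside 0.07 for all members with spans of 27163 to 40572 bases. The part of span was not tested. CARHSP1, a cold shock domain protein that binds RNA, had 515 FPKM (4.71 to 2134) in FC and 827 FPKM (3.97 to 1843) in FP, a ratio of 0.623. The stress granule protein G3BP1 had a ratio of 0.76 (209.7 FPKM in FC and 276 FPKM in FP), and RBM24 had a ratio of 0.785 (615 FPKM in FC and 783 FPKM in FP). TDRD7, a granule protein whose loss causes cataract in people and mice, went the other way at 763 FPKM (14.5 to 1722) in FC and 621 FPKM (20.6 to 1334) in FP, a ratio of 1.23. The related RBM38 was level at 0.985. CELF2, a splicing regulator that passed through FC only, was the only member 1.5-fold or more higher (1.64, 6.03 FPKM in FC and 3.68 FPKM in FP).

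Growth factor signaling was mixed, with 26 of 38 members near the median, 5 higher and 1 lower by 1.5-fold or more, beside 6.53% and 2.04% of all members. Of the 5 higher, LRP5 and HES5 were members through FC only. Among ligands, FGF1 was level at 76.03 FPKM in FC and 73.5 FPKM in FP and FGF12 had 86.7 FPKM in FC and 63.9 FPKM in FP, a ratio of 1.36. The Wnt coreceptor LRP5 had 5.1 FPKM (0.416 to 9.81) in FC and 2.43 FPKM (0.538 to 4.33) in FP, a ratio of 2.096. DKK-1, a secreted inhibitor that binds such coreceptors, had 23.1 FPKM (4.56 to 28.9) in FC and 12.5 FPKM (1.74 to 25.2) in FP, a ratio of 1.86. The Wnt receptor FZD3 had 2.29 FPKM (0.414 to 7.87) in FC and 5.21 FPKM (1.24 to 9.199) in FP, a ratio of 0.439. LRP5 and FZD3 were named as the ends of the list, and each was a member through 1 region only, LRP5 through FC and FZD3 through FP. DKK3, the most abundant of the list, was level at 1311 FPKM in FC and 1229 FPKM in FP. HES5, a Notch target that passed through FC only, had a ratio of 1.65 and JAG1, a Notch ligand, a ratio of 0.847.

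The level rule was reached by 5 of 55 loci of mitosis and 15 of 43 loci of replication. Among all loci with a symbol, 5941 of 12825 reached it. Replication genes were mixed, with 10 of 15 members near the median. Beside ORC6, the clamp loader subunit RFC5 had 49.3 FPKM (16.9 to 79.6) in FC and 32.8 FPKM (12.5 to 52.9) in FP, a ratio of 1.503, and the clamp PCNA had 46.9 FPKM (17.4 to 75.8) in FC and 34.1 FPKM (13.7 to 54.3) in FP, a ratio of 1.37. RFC4, another loader subunit, was on the other side at 9.39 FPKM in FC and 11.9 FPKM in FP, a ratio of 0.7896. RFC5 and RFC4 were named for their high and low ratios, and the intervals of FC and FP overlapped for each. No difference between them was read. Cyclins, kinases and inhibitors were flat at 14 of 20 near the median. CDKN1B, the p27 inhibitor that keeps fibers out of the cycle, had 86.3 FPKM (27.3 to 145) in FC and 60.1 FPKM (7.65 to 123) in FP, a ratio of 1.43. CCND2, a cyclin that epithelial cells use, had 20.9 FPKM in FC and 13.4 FPKM in FP, a ratio of 1.56, in the same direction as most other epithelial markers above. The mitosis list had 5 members, too few for the rule, with ratios between 0.728 for PTTG1 (securin) and 1.42 for CDC2.

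Genes of the nucleus itself were flat. Among the 14 genes of the lamina, its membrane anchors and the dismantling of nuclei, 11 were near the median. The caspase-activated nuclease DFFB was abundant for its kind at 141 FPKM (0 to 689) in FC and 124 FPKM (0 to 388) in FP, and its inhibitor DFFA was at 67.2 FPKM (1.19 to 175) in FC and 63.9 FPKM (6.72 to 121) in FP, with ratios of 1.14 and 1.05. CASP9, the initiator caspase, had 14.4 FPKM in FC and 11.1 FPKM in FP, a ratio of 1.296. Nuclear pore genes were flat at 16 of 19, with NUPL2 and AAAS (1.54) high, and SEH1L (0.874) lowest. The other locus past 1.5-fold in that list joins NUP210L with FDPS, whose reads cannot be told apart from those of the pore gene.

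Splicing factors (55 of 71 near the median), general transcription factors and polymerase subunits (67 of 78) and chromatin genes (65 of 83) were flat too. TCEB3, elongin A, was the most abundant of the general transcription list at 1056 FPKM in FC and 868 FPKM in FP, and no member of that list was past 1.5-fold in either direction. Among splicing genes, SNRPE, a core protein of spliceosomal particles, had 132 FPKM (37.3 to 226) in FC and 82.4 FPKM (30.7 to 134) in FP, a ratio of 1.61, while SNRPD1, of the same ring, had 37.6 FPKM (14.4 to 60.7) in FC and 47.3 FPKM (20.1 to 74.3) in FP, a ratio of 0.796. U2AF1, which binds the end of introns, was lowest at 29.7 FPKM in FC and 44.6 FPKM in FP. In the chromatin list, the Polycomb protein CBX2 was higher in FC, at 15.7 FPKM (4.74 to 26.6) in FC and 10.4 FPKM (3.81 to 17.02) in FP, a ratio of 1.51. The high mobility group protein HMGN1 was lower, at 16.8 FPKM (3.76 to 52.99) in FC and 26.8 FPKM (8.45 to 45.1) in FP, a ratio of 0.628. HMGA2 had the lowest ratio, 0.226, with FPKM outside its own interval in both regions.

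The cytosolic ribosome was the list that drifted. Of its 68 members, 61 were higher in FC, beside 69.6% of all members, and 53 lay above the median of all members, which the list exceeded by 0.16 on the log2 scale. The shift was small and even. A total of 58 members were near the median of all members, and 3 were 1.5-fold or more higher, a smaller share than the 6.53% of all members. RPS29 had 2595 FPKM (341 to 4193) in FC and 1661 FPKM (317 to 2744) in FP, a ratio of 1.56. GNB2L1, the scaffold RACK1 of the small subunit, had 2700.3 FPKM (363 to 5037) in FC and 1754 FPKM (343 to 3163) in FP, a ratio of 1.54. RPS3 had 1933 FPKM (370.2 to 3494) in FC and 1272 FPKM (304 to 2235) in FP, a ratio of 1.52. Both subunits took part, with medians above that of all members by 0.23 for 26 genes of the small subunit and by 0.16 for 41 genes of the large subunit. The most abundant member, RPL38, had 9701 FPKM in FC and 8030.1 FPKM in FP, a ratio of 1.21. RPL36 followed, with FPKM above its own interval in both regions. The lowest ratio was that of the RPS12 locus, 0.691, which also holds the small nucleolar RNA SNORD100. Other low members were RPL21 (0.9497) and RPL29 (0.956).

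A property that the lists were not chosen on moved with this result. The ratio of FC over FP was higher at loci of short genomic span. In the decile of members with the shortest span, up to 2866 bases, the median log2 ratio was 0.30 and 108 of 595 members, or 18.2%, were 1.5-fold or more higher in FC. The second decile had a median of 0.19, and the longest decile had a median of 0.08 with 25 of 594 members, or 4.21%, past 1.5-fold. The ribosomal genes had a median span of 3241 bases, and 66 of the 68 lay in the 3 shortest deciles. Within these deciles their medians were 0.33, 0.26 and 0.22, beside 0.30, 0.19 and 0.13 for the other members. When ratios were centred within deciles of span, an alternative chosen after the data were seen, the list stood 0.05 above the median of all members and was flat. With means in place of medians it stood 0.13 above and was not called. The part of span in the result was not tested. By level, the median log2 ratio was 0.19 in the most abundant decile of members and between 0.07 and 0.13 in the other 9 deciles.

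**Figure D5:**
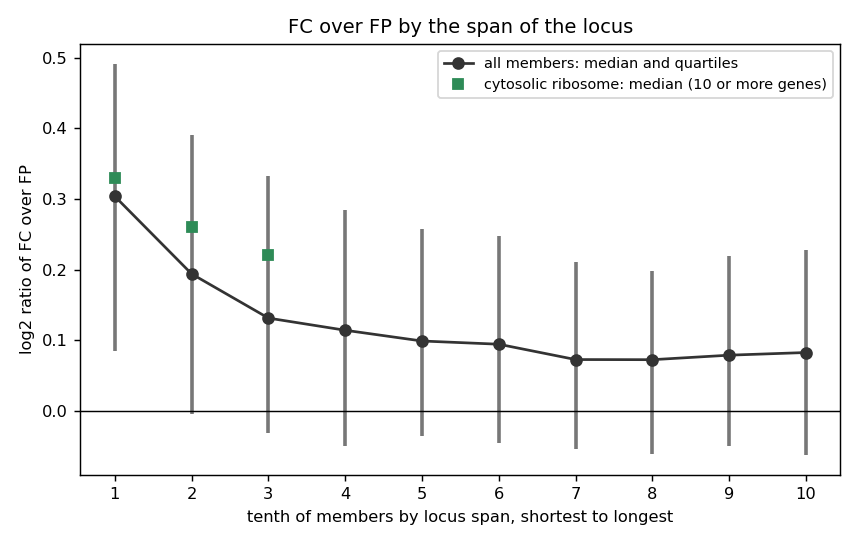
Log2 ratio of FC over FP by decile of the members' locus span, from shortest (1) to longest (10), as the median (line) with quartiles (bars), and the median of the cytosolic ribosome genes in the deciles with 10 or more of them (squares). The median of all members is 0.30 in the first decile and 0.08 in the last, and the ribosomal medians lie 0.03 to 0.09 above the line.

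Other translation genes held steady. Translation factors were among the flattest lists, with 50 of 53 members near the median, none past 1.5-fold, and a median 0.0091 from that of all members. Elongation factors stood at the upper end of the list, EEF1A having 15891 FPKM (70.4 to 32482) in FC and 11247 FPKM (37.4 to 27353) in FP, a ratio of 1.41, and EEF2 having 1782 FPKM (30.5 to 3858) in FC and 1351 FPKM (33.8 to 2832) in FP, a ratio of 1.32. The cap-binding proteins EIF4E (0.814) and EIF4E2 (0.809) were lowest. PABPC1, which binds the poly(A) tail, was level at 4877 FPKM in FC and 4658 FPKM in FP. Aminoacyl-tRNA synthetases (19 of 22 near the median) and ribosome biogenesis genes (50 of 56) were flat, the nucleolar proteins NPM1 (1.12) and NCL (0.965) included.

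The ER, where secreted and membrane proteins are folded, gave some of the flattest lists. Of the 31 ER chaperones and unfolded protein response genes, 30 were near the median, none was past 1.5-fold, and 21 lay below the median of all members. CALR, the calcium-binding chaperone calreticulin, had 596 FPKM (155 to 1026) in FC and 467 FPKM (136 to 790.2) in FP, a ratio of 1.28. The stress sensor ERN1 had 8.52 FPKM in FC and 6.51 FPKM in FP, a ratio of 1.31, and the stress factor ATF4 had 114 FPKM in FC and 107 FPKM in FP, a ratio of 1.06. Translocation and COPI or COPII transport genes were alike, with 61 of 67 near the median and 41 below the median of all members. TMED4, a cargo receptor of the early secretory pathway, had the highest ratio (1.44, 679 FPKM in FC and 472 FPKM in FP), and GORASP1, a Golgi stacking protein, the lowest (0.7797, 6.06 FPKM in FC and 7.78 FPKM in FP).

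Nuclear genes for mitochondria lay near the median of all members. All 19 members of complexes II to IV were near the median of all members, with ratios between 0.919 for SDHB and 1.33 for COX8A. UQCR10, a small subunit of complex III, was at 999 FPKM in FC and 821 FPKM in FP. Complex I was flat as well, with 26 of 32 near the median, but held wider steps. NDUFS8, a core subunit, had 319 FPKM (78.3 to 558) in FC and 210.3 FPKM (70.3 to 350.3) in FP, a ratio of 1.51. NDUFAF4, an assembly factor, had 5.22 FPKM (1.07 to 11.6) in FC and 8.004 FPKM (1.28 to 14.9) in FP, a ratio of 0.653.

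ATP synthase came nearest to the ribosome, at 0.12 above the median of all members with 11 of 15 above it. It was mixed, since that median is past the limit of 0.1 for a flat list and short of the 0.15 for a drift. The subunits ATP5A1 and ATP5B were both higher in FC. ATP5A1 had 168 FPKM (44.9 to 291) in FC and 118 FPKM (39.5 to 195) in FP, a ratio of 1.43. ATP5B had 515 FPKM (123 to 906) in FC and 367 FPKM (89.9 to 643) in FP, a ratio of 1.404. ATP5G1, a subunit of the rotating ring, had 53.2 FPKM (20.3 to 85.9) in FC and 31.9 FPKM (12.9 to 50.7) in FP, a ratio of 1.67. On the other side, ATP5J2 had a ratio of 0.85 and ATP5F1 of 0.917. Like the ribosomal genes, these loci were short, with a median span of 4695 bases.

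Other mitochondrial lists were flat. Mitochondrial ribosome genes had 41 of 52 near the median, protein import and quality control 37 of 42, carriers 18 of 20 and the TCA cycle 25 of 27. The exceptions included TIMM10, an import chaperone, at 15.4 FPKM (4.94 to 25.6) in FC and 7.703 FPKM (2.199 to 13.2) in FP, a ratio of 1.996, and PHB2, a prohibitin that also serves as a mitophagy receptor, at 382 FPKM (77.3 to 681) in FC and 239 FPKM (66.9 to 409) in FP, a ratio of 1.598. IDH3B, a subunit of isocitrate dehydrogenase, had 24 FPKM in FC and 13.1 FPKM in FP, a ratio of 1.83, while its partner IDH3A was level at 0.983. Fusion, fission and biogenesis genes lay -0.08 relative to all members. SNPH, which anchors mitochondria to microtubules, stood apart at 33.6 FPKM (8.29 to 56.7) in FC and 14.6 FPKM (4.85 to 24.3) in FP, a ratio of 2.31. The fusion GTPase OPA1 had 6.36 FPKM in FC and 7.45 FPKM in FP, a ratio of 0.853, the fission GTPase DNM1L a ratio of 0.962, and TRAK1, an adaptor that links mitochondria to motors, the lowest at 0.746. The 3 merged loci of the mitochondrial genome had ratios of 0.943, 0.908 and 0.780, with FPKM far above their own intervals, and were too few for the rule.

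Autophagy genes were flat, with 41 of 49 near the median and a median -0.02 from that of all members. SQSTM1, the receptor p62 that carries ubiquitin-marked cargo to autophagosomes, had 54.1 FPKM (15.5 to 92.5) in FC and 29.7 FPKM (10.8 to 48.6) in FP, a ratio of 1.82. TBC1D25, a GTPase-activating protein that binds ATG8 proteins, had 8.48 FPKM (1.16 to 10.5) in FC and 2.09 FPKM (0.233 to 3.73) in FP, a ratio of 4.05, and was a member through FC only. BNIP3L, the mitophagy receptor NIX, was level at 231 FPKM (17.6 to 536) in FC and 228 FPKM (9.98 to 603) in FP. ATG3, the enzyme that joins ATG8 proteins to lipid, had 19.7 FPKM (2.19 to 70.9) in FC and 31.4 FPKM (1.89 to 62.5) in FP, a ratio of 0.627. The locus of ATG2B, which also holds a microRNA, had a ratio of 0.456. SQSTM1 and ATG3 were named for their high and low ratios, and no difference between them was read. WIPI1, the most abundant member, was at 259.9 FPKM in FC and 196 FPKM in FP, a ratio of 1.32.

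Lysosomal genes were flat by their median (-0.0042), with 5 of 41 members 1.5-fold or more higher in FC and 0 lower, beside 6.53% and 2.04% of all members. CTSA, the protective protein cathepsin A, had 161 FPKM (24.7 to 296) in FC and 80.4 FPKM (15.3 to 146) in FP, a ratio of 1.997. NPC2, which hands cholesterol on inside lysosomes, had 34.8 FPKM (11.5 to 58) in FC and 18.4 FPKM (7.35 to 29.4) in FP, a ratio of 1.89. SMPD1, acid sphingomyelinase, had 47.5 FPKM (12.4 to 73.05) in FC and 25.5 FPKM (9.35 to 41.5) in FP, a ratio of 1.86, and the peptidase TPP1 had 87.98 FPKM (23.03 to 132) in FC and 48.1 FPKM (16.2 to 78.6) in FP, a ratio of 1.83. Of other cathepsins, CTSL2 had a ratio of 1.08 and the CTSB locus of 0.815. The proton pump that acidifies lysosomes was one of the flattest lists, all 16 members lying near the median and 12 below the median of all members. ATP6V0C, its ring subunit, was at 220.3 FPKM in FC and 184 FPKM in FP.

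The ubiquitin and proteasome system was flat in all its lists. The proteasome had 35 of 39 members near the median, among them the catalytic-ring subunit PSMB7 with 266 FPKM in FC and 209.8 FPKM in FP. PSMC5, an ATPase of the cap, was above that range at 239 FPKM in FC and 165 FPKM in FP, a ratio of 1.44. PAAF1, an assembly factor, was its only member past 1.5-fold (1.77, 7.34 FPKM in FC and 4.16 FPKM in FP), through FC only. UBB, one of the ubiquitin genes, had 2375 FPKM (382 to 4363) in FC and 1695 FPKM (343 to 3043) in FP, a ratio of 1.401. Conjugating enzymes spread more, with UBE2J1, which works at the ER membrane, at 49.7 FPKM (4.91 to 101) in FC and 27.8 FPKM (5.49 to 50.1) in FP, a ratio of 1.79, and UBE2H at 50.7 FPKM (1.89 to 297) in FC and 92.7 FPKM (5.34 to 203) in FP, a ratio of 0.547. Among deubiquitinases, 35 of 43 were near the median, with USP36 (2.21) and OTUD7B (2.02) higher and USP25 (0.6696) lowest. The 111 ligases of the F-box, KLHL, TRIM and RNF families had 96 near the median. Of these ligases, 3 were higher and 2 lower by 1.5-fold or more, beside 6.53% and 2.04% of all members.

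Chaperones of the cytosol were flat. Heat shock proteins and their DNAJ partners had 44 of 51 near the median, with HSPA8 at 439 FPKM in FC and 409.8 FPKM in FP and HSP90AA1 at 391 FPKM in FC and 378 FPKM in FP. HSP70, which responds to stress and to handling of tissue, had 623 FPKM (76.5 to 1169) in FC and 481 FPKM (105 to 854) in FP, a ratio of 1.29. Of 15 handling-responsive loci with HSP70 included, taken at any level, 9 were higher and 6 lower in FC. Among all members, which reach 5 FPKM in FC or FP, 69.6% were higher in FC. Of the 6 handling loci at that level, only the DUSP1 locus (12.3 FPKM in FC and 19.1 FPKM in FP) was lower. JUN (138 FPKM in FC and 98.4 FPKM in FP) and GADD45B (18.8 FPKM in FC and 9.24 FPKM in FP) were among the higher. EGR1, below that level, was lower in FC (0.245 FPKM in FC and 0.548 FPKM in FP). The part of handling was not tested. The chaperonin TRiC and prefoldin, which fold actin and tubulin, had 12 of 13 near the median. Among calpains, cathepsin inhibitors and cell death genes, AIFM2, an oxidoreductase named for its likeness to a death factor, had 11.1 FPKM (3.66 to 18.2) in FC and 5.84 FPKM (2.11 to 9.44) in FP, a ratio of 1.899, and the cystatins CSTA (0.602) and CSTB (0.699), inhibitors of cathepsins, were among the lowest, CSTA through FP only. CSTB had 19.2 FPKM (4.19 to 40.5) in FC and 27.5 FPKM (10.7 to 44.3) in FP.

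Metabolic lists were flat or mixed. Glycolysis and hypoxia genes were flat, with 27 of 38 near the median. The kinase subunit PFKL had 304 FPKM (73.1 to 533) in FC and 204 FPKM (53.2 to 355) in FP, a ratio of 1.49, whereas its isoform PFKP had a ratio of 0.746 at 9.54 FPKM in FC and 12.8 FPKM in FP. LDHA, which makes lactate, had 279 FPKM (67.7 to 491) in FC and 382 FPKM (28.2 to 735) in FP, a ratio of 0.732, and NDRG1, a hypoxia-responsive gene, had 181 FPKM (3.44 to 527) in FC and 277 FPKM (7.44 to 585) in FP, a ratio of 0.653. VEGFA, another hypoxia target, was on the other side at 9.904 FPKM in FC and 6.68 FPKM in FP, a ratio of 1.48. GAPDH was at 6004 FPKM in FC and 6610.2 FPKM in FP. NDRG1 and VEGFA were named for their low and high ratios, and no difference between them was read.

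Antioxidant genes were mixed. HMOX1, heme oxygenase, had 9.64 FPKM (2.63 to 16.7) in FC and 3.5 FPKM (0.808 to 6.16) in FP, a ratio of 2.75, and was a member through FC only. GPX1 had 898 FPKM (126 to 1649) in FC and 549.7 FPKM (100.2 to 999) in FP, a ratio of 1.63, and GPX3, a secreted relative, had 345.7 FPKM (0 to 731) in FC and 162 FPKM (0 to 525) in FP, with lower bounds of 0. GPX4, which protects membrane lipids, was level at 1.07. The mitochondrial dismutase SOD2 had 14.2 FPKM in FC and 9.18 FPKM in FP, a ratio of 1.55. GSTK1, a glutathione transferase, was lowest at 12.9 FPKM in FC and 20.2 FPKM in FP, a ratio of 0.636.

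Lipid synthesis was flat with 41 of 50 near the median. After SPHK1, its highest ratios were those of PMVK (2.17, 17.4 FPKM in FC and 8.02 FPKM in FP) and MVD (1.697, 30.6 FPKM in FC and 18.1 FPKM in FP), which act one after the other in the mevalonate route to cholesterol. SC5DL, a late sterol enzyme, was the most abundant single-gene locus of the list at 445 FPKM in FC and 301 FPKM in FP. At the low end were CEPT1, which makes phospholipids (0.632, 37.7 FPKM in FC and 59.6 FPKM in FP), and the fatty acid elongases ELOVL5 (0.702) and ELOVL4 (0.811). Purine and nucleotide salvage was mixed. IMPDH2, of new synthesis of guanine nucleotides, had 114 FPKM in FC and 78.05 FPKM in FP, a ratio of 1.46, and HPRT1, of salvage, had 96.1 FPKM in FC and 139 FPKM in FP, a ratio of 0.692.

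Channels, pumps and aquaporins were mixed, with 3 of 45 higher and 4 lower by 1.5-fold or more, beside 6.53% and 2.04% of all members. FXYD6, which modulates the sodium pump, had 107 FPKM (29.7 to 185) in FC and 59.4 FPKM (20.02 to 98.7) in FP, a ratio of 1.81. AQP2, a water channel known from the kidney, had 1.89 FPKM (0.361 to 3.25) in FC and 6.45 FPKM (1.81 to 11.2) in FP, a ratio of 0.293, and the pacemaker channel HCN3 had 4.27 FPKM (0.918 to 7.53) in FC and 8.41 FPKM (2.39 to 14.3) in FP, a ratio of 0.508, while HCN2 of the same family was listed at 2 loci with ratios of 1.46 and 0.782. AQP2 and HCN3 were members through FP only, as was the calcium channel ORAI1 (0.572, 3.04 FPKM in FC and 5.31 FPKM in FP). Sugar, amino acid and monocarboxylate transporters were flat, with 19 of 25 near the median and none past 1.5-fold. SLC2A1, the glucose transporter GLUT1, was level at 239 FPKM (13.6 to 541) in FC and 225 FPKM (4.77 to 571) in FP.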

How the data were processed

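RNA of FC and FP was sequenced by the authors from 2 pools of 100 microdissected lenses per region (directional mRNA libraries, 35-base single-end reads), aligned with TopHat to Galgal4 and quantified with Cufflinks and Cuffdiff 2.1.1, as the submitters' processing notes and the paper state. The deposited values are FPKM pooled over the libraries of a region, with the bounds of a 95% interval. No read counts were used. The paper reports approximate read totals per lens area after filtering, which were not used here. At 43.4% of 11267 loci the interval bounds were whole multiples of a common step (tolerance 0.01), but the FPKM lay on such steps (tolerance 0.05) at only 10.2% of these loci in FC and 10.4% in FP, so reads were not recovered. A second deposited table holds the authors' own comparisons of regions (fold change, test statistic, p and q) and was not used. No per-sample column was left out (0 such columns).

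Members had a symbol and 5 FPKM or more in FC or FP. The ratio is FC over FP with no value added, and none was computed at 0. Loci were given by their listed name and position, names being matched with and without hyphens. Members and lists were chosen with earlier results of these data known. Lists of 8 or more members were called by the rule given in the text. Named were the 12 highest and 12 lowest ratios, members with separate intervals, the crystallins and fiber genes, and in each list members of the highest and lowest ratios and highest FPKM. Some loci that this rule names are not reported here. Code was tested on simulated data. Alternatives were minimum levels of 1 and 10 FPKM, 5 FPKM in both regions, a pseudocount of 1 FPKM, centring, rescaling, leaving out 97 merged loci or 34 with FPKM outside their own interval, a fold of 2, means for medians and, added later, centring within deciles of span. Python 3.11.15, numpy 2.4.6, pandas 2.3.3 and matplotlib 3.10.9 were used. No sequence was printed.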

Additional observations from a re-analysis of the deposited data

How the results depend on the processing

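No paired analysis was possible because each region has 1 pooled value, and for the same reason leaving out a library was not run. Counts of members 1.5-fold or more higher and lower in FC, 388 and 121, were 773 and 436 at a minimum of 1 FPKM, 60 and 33 at a threshold of 2, 186 and 206 after rescaling to equal sums, where the median log2 ratio of all members was -0.039 in place of 0.11, and 188 and 197 when centred within deciles of locus span. Centring on the median gave 222 higher members. The lower count was 77 at a minimum of 10 FPKM and 78 with 5 FPKM in both regions. At 1 FPKM, 7 loci had separate intervals in place of 1. The number of flat lists, 38, ranged from 30 to 41, and 26 of the 38 were flat under each setting tried other than centring within deciles of span. The cytosolic ribosome drifted under each alternative except means for medians (0.13), where crystallins drifted instead (0.20), and centring within deciles of span (0.050), where 0 lists drifted. The cause was not tested. The intervals, wide at most loci, limit what a ratio of a single gene shows.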

Other observations

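Loci outside the symbol rule spread far more than the members. Of 432 loci known only by small RNA names with 5 FPKM or more in FC or FP, 235 were listed at 0 in FC or FP, 189 had an FPKM outside its own interval, and the standard deviation of the log2 ratio over the other 197 was 1.35, against 0.35 for the members. Other loci with no symbol numbered 577, of which 503 had a ratio, with a median log2 ratio of 0.21. Of these 503, 82 (16.3%) were higher and 36 (7.16%) lower by 1.5-fold or more in FC, beside 6.53% and 2.04% of all members.

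Chromosomes differed in the share of members 1.5-fold or more higher in FC. The median log2 ratio was 0.24 over 102 members on chromosome 27, 0.23 over 69 on chromosome 25 and 0.06 over 707 on chromosome 1. On chromosome 27, 15 members (14.7%) were 1.5-fold or more higher and 1 (0.98%) lower. Chromosome 25 had 12 higher (17.4%) and 3 lower (4.35%), and chromosome 1 had 34 higher (4.81%) and 22 lower (3.11%). Among all members the shares were 6.53% and 2.04%. Median locus spans were 7726, 7499 and 18820 bases on chromosomes 27, 25 and 1. Other chromosomes of short span were not alike. Their median log2 ratios were 0.18 on chromosome 28 (7484 bases) and 0.20 on chromosome 24 (8159.5 bases), but 0.08 on chromosome 23 (8455.5 bases). The part of span in these differences was not tested. Among replication-dependent histone genes, whose messages mostly lack a poly(A) tail, an H4-I locus was at 361 FPKM in FC and 315 FPKM in FP.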
